A study of Mus musculus with 4 samples.

Results

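Loss of CSF2 was followed lineage by lineage in the colon lamina propria, by setting a droplet single-cell library of Csf2-/- mice against a library of wild-type mice. Barcodes under 200 detected genes or over 10% mitochondrial UMIs were dropped, where a UMI (unique molecular identifier) stands for 1 captured RNA molecule. A kept cell was placed in a lineage when it passed the gate of that lineage and of no other: at least 4 UMIs of the VEGF receptor genes Kdr and Flt1 for endothelial cells, at least 4 of Pdgfrb and Notch3 for mural cells (the pericytes and smooth muscle that wrap vessels), at least 2 of Flt3 for dendritic cells and at least 2 of Csf1r for monocyte-macrophages. The gates placed 4456 of the 6465 kept lamina propria cells, out of 16557 kept cells in the series. Of these, 3106 were wild type and 1350 Csf2-/-. Wild-type mice were Csf2+/+ and knockout mice Csf2-/-. Both groups also carried 1 CX3CR1-GFP and 1 CCR2-RFP reporter allele. The mice were untreated and at steady state, and cells had been enriched by positive selection for CD11b, the integrin chain encoded by Itgam. The design text speaks of 5 mice, and the sources used here do not state how they were pooled or which sex or age they had.

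CSF2, also called GM-CSF, is a cytokine that lymphoid and stromal cells of the gut supply to myeloid cells. It signals through a receptor made of a ligand-specific alpha chain, Csf2ra, and a beta chain, Csf2rb, that is shared with other cytokines and acts through JAK2 and STAT5. Dendritic cells, monocytes and macrophages carry this receptor, while endothelial and mural cells are not known as its main targets. In the colon, macrophages of the lamina propria are replaced by monocytes from the blood, next to longer-lived macrophages that take up debris around vessels and nerves.

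Each genotype was 1 library, so no difference has a replicate check, and none was tested. Intervals below are exact 95% intervals that cover counting error only. Csf2 itself gave 2 UMIs in the wild-type library and 0 in the Csf2-/- library, where a count of 0 allows up to 0.159 CPM (UMIs per 1000000 UMIs of the summed cells); this depth cannot check the labels. The wild-type library held 50017502 UMIs in 5128 barcodes and the Csf2-/- library 19225644 in 2158, with 3 barcodes shared between their kept cells. Median depth in the endothelial, mural, dendritic and monocyte-macrophage cells was 7368, 6876, 13420 and 12182 UMIs a cell in wild type, against 6798, 5711, 12038 and 9869 in Csf2-/-. Despite the CD11b selection, Itgam was read at 4.44 CPM in wild-type endothelial and 5.49 CPM in mural cells, against 229 in dendritic cells and 419 in monocyte-macrophages. Of 8 markers fixed for each lineage, 8, 8, 7 and 8 were highest in their own lineage in wild type and 8, 8, 7 and 7 in Csf2-/-. The exceptions were Zbtb46 in wild type, and in Csf2-/- Ccr7, which had no dendritic UMI, and Mertk, which was highest in another lineage.

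Both libraries held cells of both sexes, in different mixtures. Cells with UMIs of Xist and of no Y-linked gene (Ddx3y, Eif2s3y, Kdm5d, Uty) are called female-typed here, and the reverse male-typed. Female-typed cells were 74.6% of typed endothelial cells in wild type and 75.8% in Csf2-/-. In monocyte-macrophages they were 28.6% (26.2 to 31.1) in wild type and 74.6% (71.0 to 78.0) in Csf2-/-, and in dendritic cells 34.4% (22.7 to 47.7) and 78.2% (68.0 to 86.3). Mural cells lay at 71.1% and 89.9%, with 12 male-typed Csf2-/- mural cells. Dendritic subsets were small, with 21 female-typed and 40 male-typed cells in wild type and 68 and 19 in Csf2-/-. Male-typed Csf2-/- endothelial cells numbered 62. Within the wild-type library the share also differed between lineages, so it does not tell which mice were pooled. In the myeloid lineages the genotypes differed in their share of female-typed cells, while the endothelial shares were close. Results are therefore also given within female-typed and within male-typed cells, a split chosen after the values were seen.

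**Figure D1:**
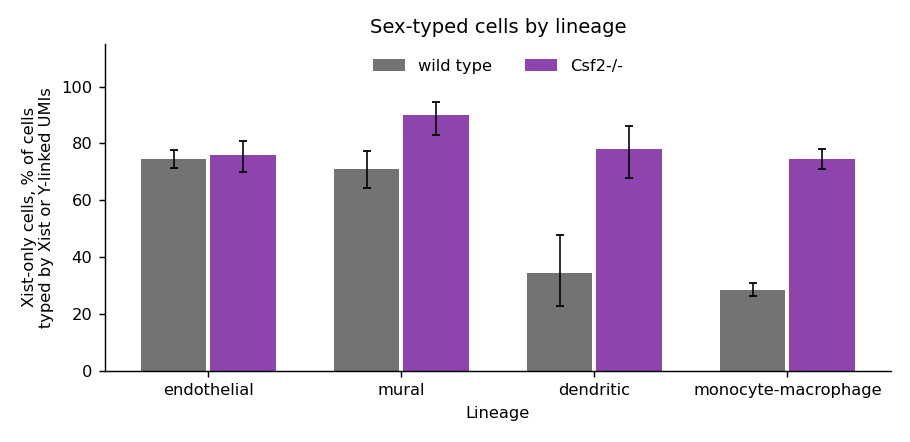
Female-typed cells as a percent of typed cells (y axis) in each lineage (x axis), in wild type (grey) and Csf2-/- (purple); bars are 1 library each and error bars are exact 95% binomial intervals. The dendritic and monocyte-macrophage bars are at 34.4% and 28.6% in wild type and at 78.2% and 74.6% in Csf2-/-, while both endothelial bars lie near 75%.

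Endothelial cells were a smaller share of the Csf2-/- library and dendritic cells a larger one. Endothelial cells made up 24.2% (22.9 to 25.5) of kept wild-type cells, 1086 cells, and 16.7% (15.1 to 18.4) of Csf2-/- cells, 330 cells. Dendritic cells made up 1.69% (1.34 to 2.11; 76 cells) and 5.72% (4.74 to 6.84; 113 cells), a ratio of 3.38. When cells that pass several gates were counted in each, this ratio was 1.86. Mural cells made up 5.50% (4.85 to 6.21; 247 cells) and 7.65% (6.52 to 8.91; 151 cells). Monocyte-macrophages were 37.8% (36.4 to 39.2; 1697 cells) and 38.3% (36.1 to 40.5; 756 cells), intervals that overlap. Such shares depend on the CD11b selection, and cells passing both the endothelial and the mural gate (451 and 204 cells) or both the dendritic and the monocyte-macrophage gate (139 and 64) were left out.

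Genes were compared as CPM of the summed UMIs of a lineage. A gene was measured in a lineage with a mean of at least 25 CPM over both libraries and at least 30 UMIs, and is called higher or lower from a 1.5-fold difference, a log2 ratio of 0.58. A sum does not tell more cells of a subtype from more RNA per cell. In monocyte-macrophages 199 of 5261 measured genes were higher in Csf2-/- and 453 lower, together 12.4%. Dendritic cells had 294 higher and 436 lower of 4871 (15%), mural cells 392 and 421 of 6080 (13.4%), and endothelial cells 131 and 194 of 5753 (5.65%). The dendritic and mural sums rest on the fewest UMIs, 1137628 and 1819943 in wild type, and so have the widest intervals. The median log2 ratio of all measured genes was -0.08 in monocyte-macrophages, -0.01 in dendritic, 0.03 in mural and 0.02 in endothelial cells.

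Of 3501 genes measured in all 4 lineages, 8 were higher in all 4 (0.229%) and 16 lower in all 4 (0.457%), 2623 changed in none and 4 changed in opposite directions. Pfn1, encoding the actin monomer carrier profilin, was the most abundant of the higher genes. It was read at 319 CPM in wild-type and 593 in Csf2-/- endothelial cells, 303 and 467 in mural, 881 and 1375 in dendritic, and 696 and 1204 in monocyte-macrophages. The Csf2-/- value was the higher in each lineage, with log2 ratios of 0.90, 0.63, 0.64 and 0.79 in that order. Hypk (0.72 to 0.88), a partner of the N-terminal acetylation machinery, Alyref (0.67 to 1.16), an mRNA export adaptor, and Ost4 (0.59 to 0.92), a subunit of the glycan-transferring enzyme of the endoplasmic reticulum, completed the named higher genes. The other higher genes were Polr2l and Nr4a2, which passed only with the highest cell of each library and are named outside the rule, after their values were seen, and 2 unnamed gene models.

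The lower genes were led by Lars2, the mitochondrial leucyl-tRNA synthetase, and Hist1h1e, a linker histone. Lars2 was read at 801 CPM in wild-type and 285 in Csf2-/- endothelial cells, 1053 and 320 in mural, 544 and 150 in dendritic, and 777 and 198 in monocyte-macrophages. Its log2 ratios were -1.49, -1.72, -1.86 and -1.97, while in the solitary isolated lymphoid tissues (SILT) of the colon, the other tissue of the series, they lay between -0.18 and -0.28. Hist1h1e was read at 84.1 and 23.4, 146 and 26.6, 111 and 49.0, and 87.5 and 45.1 CPM in the same order. It was lower in each lineage of SILT too, by log2 ratios of -1.72, -2.97, -2.42 and -1.54. Ahnak, a very large scaffold protein under the plasma membrane, went from 2628 to 1505, 1226 to 718, 2263 to 1073 and 2839 to 1322 CPM.

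Several of the other lower genes also encode large proteins. Vps13c (-0.76 to -1.09), a lipid transfer protein, Macf1 (-0.61 to -0.91), which links actin to microtubules, Ckap5 (-0.74 to -1.18), which extends microtubules, and Trip11 (-0.66 to -0.80), a Golgi tether, were in this set. Ankib1, Zfp62, Tmem106b and Dnajc10 were also in it, and the dendritic interval of Tmem106b (ratio 0.388 to 1.08) included equal levels. The mitochondrial transcript mt-Atp8 was lower by -1.45 to -1.61. The unnamed gene model Gm42418, which is known to collect reads of the ribosomal RNA precursor, made up 45439, 75795, 43956 and 51869 CPM in wild type and 10757, 16223, 5145 and 8027 in Csf2-/-. It lies outside the naming rule and was chosen after its values were seen. Of the 8 higher genes none was higher in all 4 SILT lineages, with 6 measured there, and of the 16 lower genes 2 of 13 were lower there. With cells thinned to 3000 UMIs, which left 619 genes measured in all 4 lineages, 0 of the 8 and 3 of the 16 remained, and among cells weighed equally 4 and 10.

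**Figure D2:**
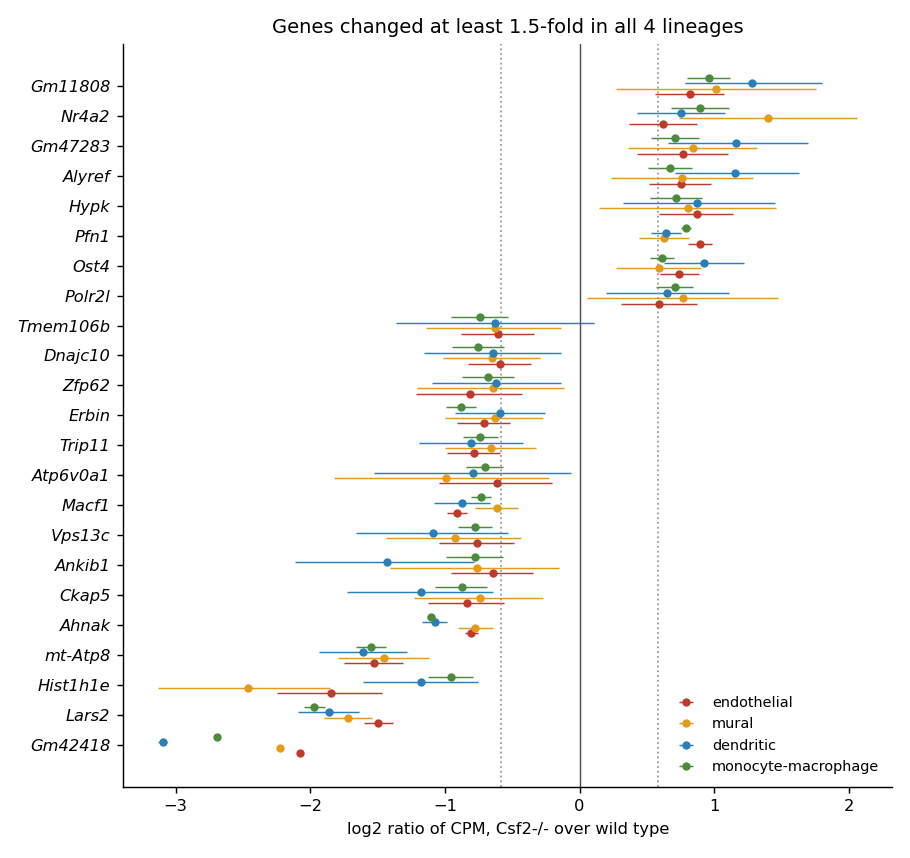
Log2 ratio of CPM in Csf2-/- over wild type (x axis) for 23 of the 24 genes changed at least 1.5-fold in all 4 lineages (y axis); points are lineages by colour, lines are exact 95% counting intervals, and dotted lines mark 1.5-fold. Lars2, Gm42418 and Hist1h1e lie farthest to the left, with Lars2 between -1.49 and -1.97.

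The promoters of Hypk and Trip11 are shown because these were the only named genes of the sets above, 1 higher and 1 lower, with a match to GAANNTTC, the inverted repeat of heat shock elements. The windows are 300 bases around the annotated start from RefSeq (GRCm38.p6), Hypk at chr2:121456838-121457137 on the plus strand and Trip11 at chr12:101913122-101913421 on the minus strand, 5′ to 3′ along the gene, with the match in capitals.
Hypk: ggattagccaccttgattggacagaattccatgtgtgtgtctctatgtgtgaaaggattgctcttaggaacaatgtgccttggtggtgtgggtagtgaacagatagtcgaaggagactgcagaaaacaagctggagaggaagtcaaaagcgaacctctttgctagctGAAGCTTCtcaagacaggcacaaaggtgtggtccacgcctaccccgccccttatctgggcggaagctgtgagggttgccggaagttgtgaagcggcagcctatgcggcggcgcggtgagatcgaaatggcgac
Trip11: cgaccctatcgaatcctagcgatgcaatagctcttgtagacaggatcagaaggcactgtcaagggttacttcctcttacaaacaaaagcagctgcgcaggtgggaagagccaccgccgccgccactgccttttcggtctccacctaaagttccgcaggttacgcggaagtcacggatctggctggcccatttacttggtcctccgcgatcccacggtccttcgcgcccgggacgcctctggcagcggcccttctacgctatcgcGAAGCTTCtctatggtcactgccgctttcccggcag
The pattern, which reads the same on both strands, occurred in 7.86% of 32851 promoter windows. Of the 8 higher genes 6 had a window and 1 held any of 7 patterns searched on both strands: the AP-1 site TGANTCA, the cAMP response element TGACGTCA, GAANNTTC, the E-box CACGTG, the STAT site TTCNNNGAA, the steroid receptor pattern ACANNNTGT and the core of the interferon-stimulated response element, which is GAAA and GAAA with any 2 bases between them. Of the 16 lower genes 11 had a window and 3 held any.

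The direction of change followed transcript length in all 4 lineages, a description added after the values were seen. The 3500 genes with a length in GENCODE M21 were put into 5 groups of 700 by their longest transcript, with median lengths from 1183 to 7646 bases. From the shortest to the longest group the median log2 ratio went from 0.20 to -0.19 in endothelial, 0.26 to -0.15 in mural, 0.20 to -0.20 in dendritic cells and 0.19 to -0.35 in monocyte-macrophages. In the shortest group 3.86% of genes were higher and 1% lower in endothelial cells, against 0.286% and 7.86% in the longest. In monocyte-macrophages the longest group held 16.7% lower genes and 0.286% higher ones. The 8 genes higher in all 4 lineages had a median length of 1824 bases and the 16 lower genes 6186, against 3566 for all. The same slope was read within female-typed cells (0.19 to -0.31 in monocyte-macrophages) and within male-typed cells (0.19 to -0.35). In SILT the slope ran the other way, from -0.05 to 0.09 in endothelial cells, -0.11 to 0.12 in mural, -0.03 to 0.17 in dendritic cells and -0.02 to 0.07 in monocyte-macrophages. Whether library handling or genotype gave this slope was not tested.

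**Figure D3:**
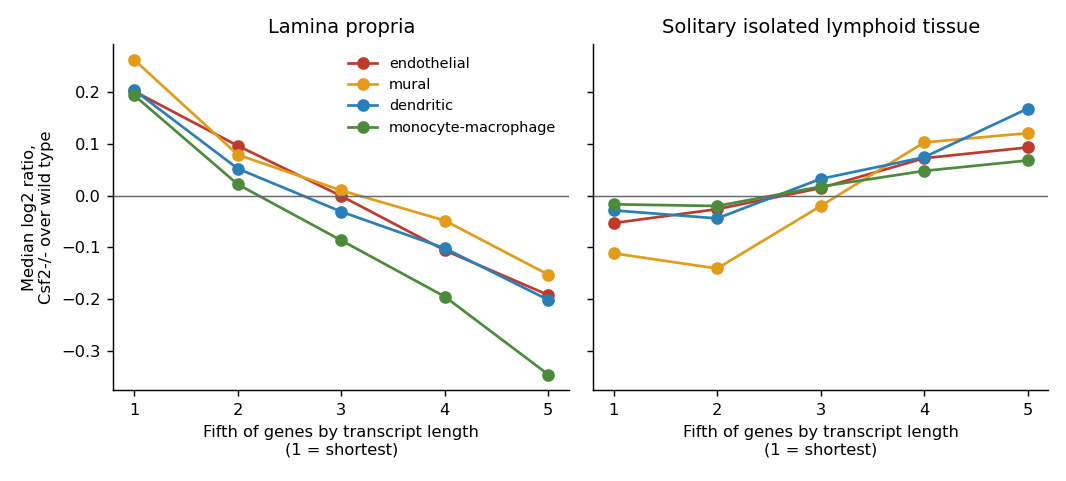
Median log2 ratio of Csf2-/- over wild type (y axis) in 5 groups of genes by transcript length (x axis, shortest to longest), for lamina propria (left) and solitary isolated lymphoid tissues (right), with 1 line per lineage. All 4 lamina propria lines fall, the monocyte-macrophage line from 0.19 to -0.35, and all 4 lymphoid tissue lines end above their start.

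Beyond these shared changes, 72 genes (2.06% of the 3501) changed in dendritic cells only, 61 (1.74%) in mural cells only, 26 (0.743%) in monocyte-macrophages only and 5 (0.143%) in endothelial cells only. Here only means 1.5-fold in that lineage and a larger value under 25% above the smaller in each of the other lineages. The ratio of the others, given beside such genes, was taken over their summed UMIs. That sum shifts with the lineage mix, with 8792069 endothelial and 1137628 dendritic UMIs in wild type against 2603139 and 1510898 in Csf2-/-. Values set against it carry that mix too, and do not measure specificity to a lineage. Lists of genes with a known role are given below by their counts and median log2 ratio. Of all measured genes, 5.65% were called either way in endothelial, 13.4% in mural, 15% in dendritic cells and 12.4% in monocyte-macrophages. A list count near the share of its lineage is not a result about that list. Over 4 lineages, the heat shock and chaperone list of 14 genes had 0 higher and 1 lower in total and medians from -0.15 to 0.00. The hypoxia list held 0 higher and 1 lower in total among 4 measured per lineage.

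**Figure D4:**
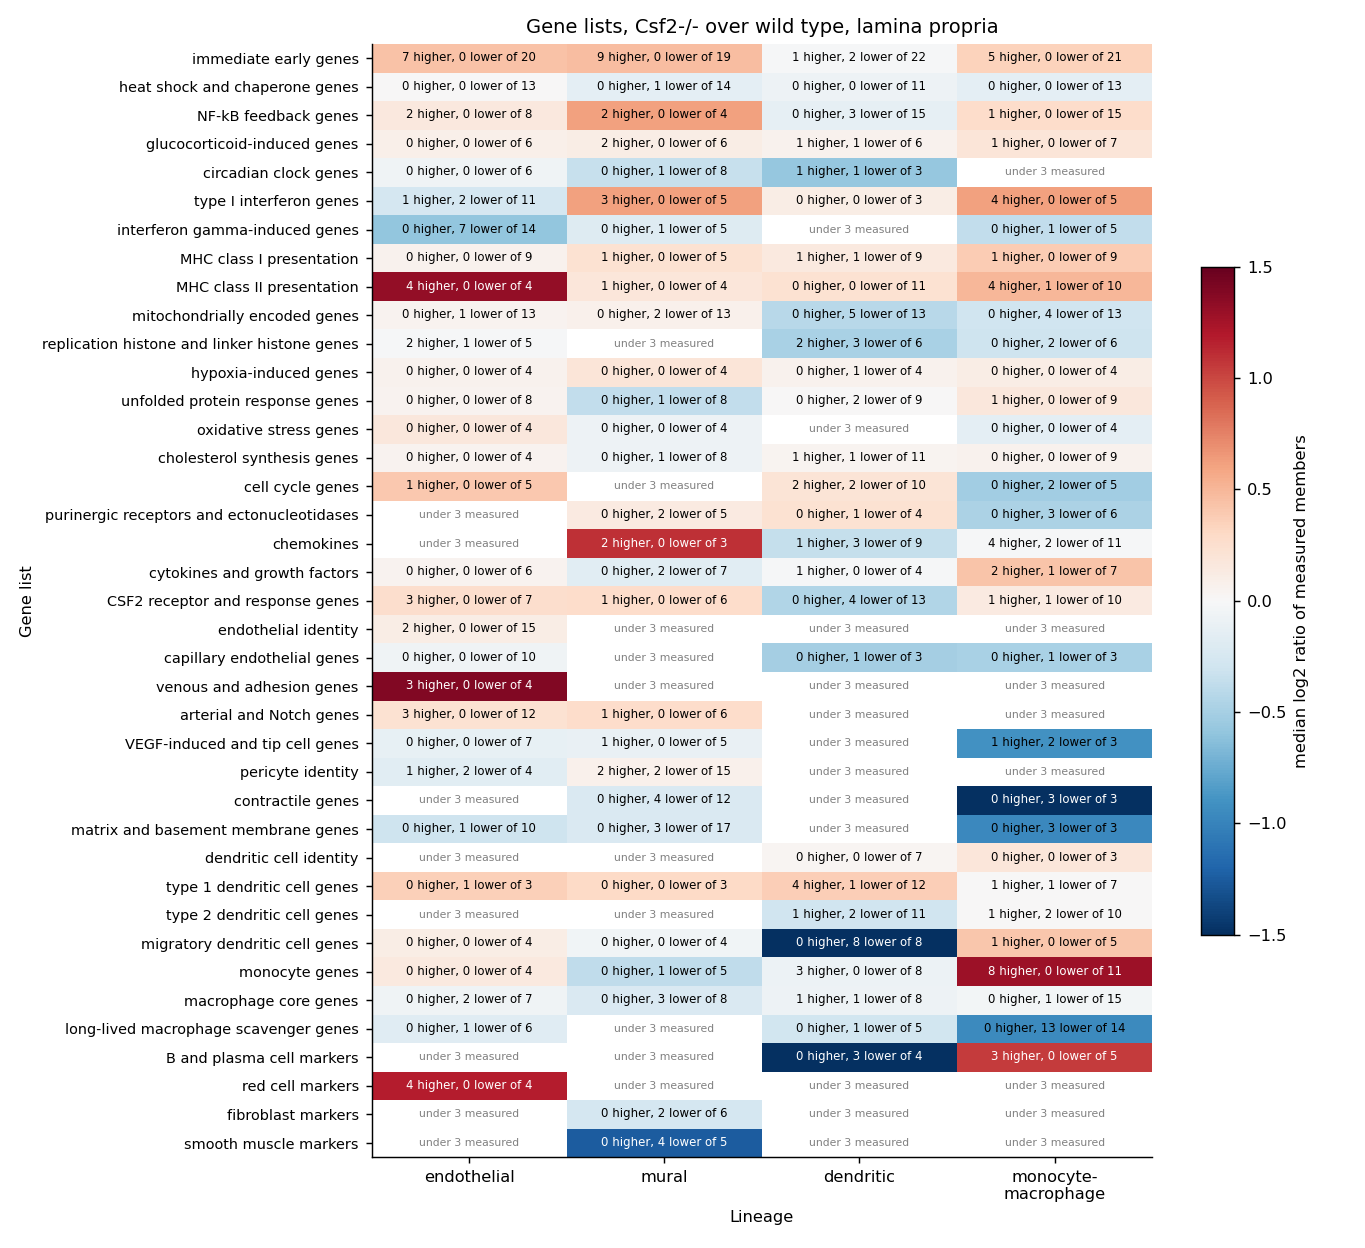
Gene lists (rows) against lineages (columns), coloured by the median log2 ratio of the measured members. The words in each coloured field give how many members were at least 1.5-fold higher or lower in Csf2-/-. Fields with under 3 measured members are uncoloured and say so, and lists with under 3 in every lineage are not drawn. Among the lists drawn are 8 higher of 11 monocyte genes and 13 lower of 14 scavenger genes in monocyte-macrophages, and 8 lower of 8 migratory genes in dendritic cells.

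In monocyte-macrophages, genes of freshly arrived monocytes were higher in Csf2-/- and genes of long-lived scavenging macrophages lower. Ly6c2, a surface protein of classical monocytes, was read at 46.4 CPM in wild type and 194 in Csf2-/-, 4.18-fold higher (3.86 to 4.52). Plac8, a small protein of early monocytes, went from 159 to 620 CPM (3.91-fold; 3.75 to 4.09). Thbs1, encoding thrombospondin, went from 21.8 to 57.8 CPM and the chitinase-like Chil3 from 20.0 to 51.3. In all, 8 of the 11 measured monocyte genes (of 15 listed) were higher and 0 lower, with a median log2 ratio of 1.29 against -0.08 for all genes. Genes such as Thbs1 and Chil3 passed the expression floor through Csf2-/-, so this count and median describe and do not support. Plac8 UMIs were in 20.6% of wild-type and 41.4% of Csf2-/- cells, or 12.9% and 31.6% with cells thinned to 3000 UMIs. Endothelial cells held it in 15.1% and 18.8%, or 7.39% and 8.08% thinned.

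The size of this difference was not the same in female-typed and male-typed cells. Within female-typed cells Ly6c2 was read at 123 CPM in wild type and 219 in Csf2-/-, and within male-typed cells at 22.4 and 131. In wild type the female-typed value was above the male-typed value, and female-typed cells were a larger share of Csf2-/- monocyte-macrophages. Whether that share had a part in the difference was not tested. Plac8 was at 402 and 643 CPM in female-typed and 97.3 and 380 in male-typed cells. Thbs1 was at 67.9 and 62.3 CPM in female-typed cells and Chil3 at 55.2 and 57.1, no increase in the former and a ratio near 1 in the latter. Over the list, 3 of 11 genes were higher in female-typed cells (median 0.10) and 8 of 11 in male-typed cells (median 1.22). Genotype and the animals cannot be told apart here.

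The scavenger genes were lower as a list, more widely in male-typed than in female-typed cells. Lyve1, a hyaluronan receptor of perivascular macrophages, was read at 803 CPM in wild type and 278 in Csf2-/-, 2.89-fold lower (2.77 to 3.03). Mrc1, the mannose receptor, went from 2048 to 759 CPM (2.70-fold lower), F13a1, a coagulation factor subunit of tissue macrophages, from 1096 to 465, and Cd163, a haemoglobin scavenger receptor, from 370 to 158. Of 14 genes listed, all were measured, 13 were lower and 0 higher, with a median log2 ratio of -0.95. The 14th, Pf4, had a log2 ratio of -0.43. Within female-typed cells 7 of 14 were lower (median -0.57), with Lyve1 at 466 and 248 CPM. Within male-typed cells 13 of 14 were lower (median -0.89), with Lyve1 at 902 and 341 CPM. Lyve1 UMIs were in 56.6% of wild-type and 26.7% of Csf2-/- monocyte-macrophages (49.4% and 22.0% thinned), against 4.88% and 0.303% of endothelial cells.

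**Figure D5:**
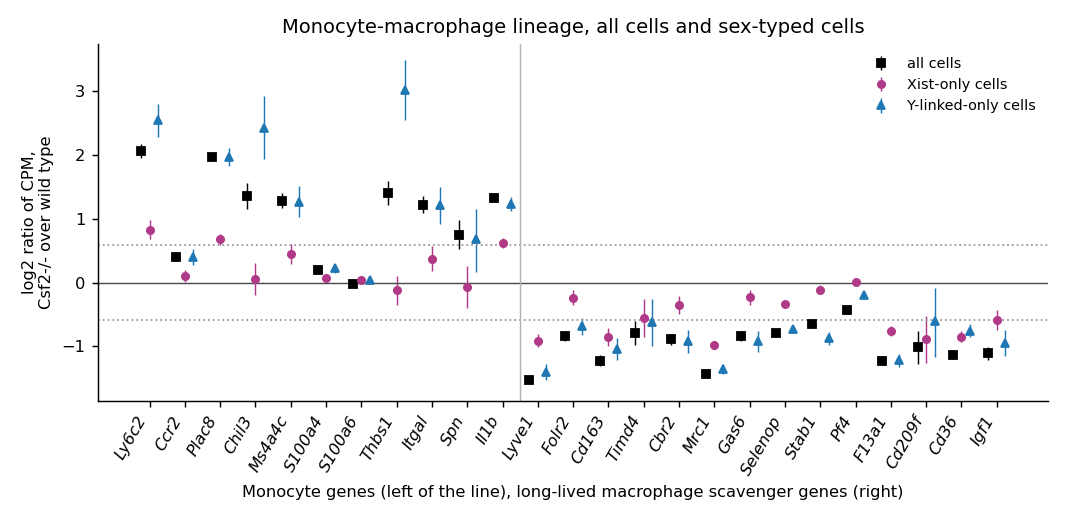
Log2 ratio of Csf2-/- over wild type (y axis) in monocyte-macrophages for the measured monocyte genes and the long-lived macrophage scavenger genes (x axis), in all cells (black squares), female-typed, or Xist-only, cells (purple circles) and male-typed, or Y-linked-only, cells (blue triangles); lines are exact 95% counting intervals and dotted lines mark 1.5-fold. Ly6c2 lies at 2.06, 0.83 and 2.54, and Lyve1 at -1.53, -0.91 and -1.40.

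Retnla, a secreted resistin-like protein of alternatively activated macrophages (chromosome 16, 48842551 to 48844461 in the GENCODE M21 annotation of GRCm38), had a larger difference than these lists. It was read at 1112 CPM in wild type and 123 in Csf2-/-, 9.07-fold lower (8.50 to 9.69). It was lower in female-typed cells (508 and 51.3 CPM), in male-typed cells (1302 and 313 CPM) and in SILT (log2 ratio -3.87). Retnla UMIs were in 458 of 1697 wild-type cells (27.0%) and 45 of 756 Csf2-/- cells (5.95%), or 11.9% and 2.90% thinned. The same direction was read where the gene is not known to be made, at 14.9 and 1.54 CPM in endothelial cells, 25.8 and 1.11 in mural cells and 20.2 and 2.65 in dendritic cells. Endothelial cells with a Retnla UMI were 10.2% in wild type and 1.21% in Csf2-/-. Free RNA in the droplets was not subtracted.

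Other genes that were measured in monocyte-macrophages alone included innate sensors and effectors. The RNA sensor Tlr8 went from 50.3 to 15.4 CPM (3.27-fold lower; 2.71 to 3.98) and had log2 ratios of -1.65 and -1.69 in female-typed and male-typed cells. The lysozyme gene Lyz1 went from 310 to 113 CPM (2.75-fold lower) and the eosinophil-attracting chemokine gene Ccl24 from 129 to 46.0 (2.80-fold lower). Among the 26 genes changed in this lineage only, 25 were lower and 1 higher. The higher gene was Nfkbia, the NF-kB inhibitor, at 277 and 429 CPM (1.55-fold; 1.35 times its ratio over the other lineages, 1.26 to 1.45). It was at a log2 ratio of 0.24 in female-typed and 0.52 in male-typed cells. Lower ones included Selenop, a selenium carrier, at 3336 and 1931 CPM (0.776 times the ratio of the others, 0.725 to 0.831), and Nrp1, a semaphorin and VEGF co-receptor, at 344 and 182 (0.863, 0.806 to 0.924).

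Some inflammatory and antigen-presenting genes were higher in this lineage. Chemokines had 4 higher and 2 lower of 11 (median -0.01), and cytokines and growth factors 2 higher and 1 lower of 7. NF-kB feedback genes had 1 higher of 15, where 12.4% of all genes of this lineage were called. Il1b, encoding interleukin-1 beta, went from 290 to 725 CPM (2.50-fold; 2.41 to 2.59), the chemokine gene Ccl3 from 76.8 to 179 and Cxcl1, which attracts neutrophils, from 8.75 to 35.8 (4.09-fold; 3.4 to 4.93). The mean of Cxcl1 lay under the expression floor, so it is not among the measured chemokines counted here. Il1b, Ccl3 and Cxcl1 were each higher within each sex-typed subset, Il1b by log2 ratios of 0.62 and 1.22. Igf1, a growth factor, went from 247 to 114 CPM. The MHC class II list had 4 higher and 1 lower of 10 measured, with H2-Aa at 4343 and 6631 CPM, H2-Ab1 1.65-fold and H2-Eb1 1.70-fold higher. Within female-typed cells these 3 had log2 ratios of 0.27, 0.38 and 0.40, under 1.5-fold, and within male-typed cells 0.71, 0.82 and 0.89. Immediate early genes, which respond to activation and to tissue handling, had 5 higher of 21 (2 in female-typed cells, and 3 higher and 1 lower in male-typed cells), with Nr4a1 at 91.9 and 226 CPM. Type I interferon genes had 4 higher of 5 (median 0.62), but 2 in female-typed (median 0.13) and 1 in male-typed cells (median 0.25), with Ifi27l2a at 573 and 1055 CPM, which was at 744 and 1321 in female-typed and 529 and 573 in male-typed cells.

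Purinergic genes, which sense and degrade extracellular nucleotides, had 3 lower of 6 measured and 0 higher. P2ry12, an ADP receptor, went from 124 to 56.7 CPM (2.19-fold lower; 1.98 to 2.42) and Entpd1, the ATP-degrading ectonucleotidase CD39, from 167 to 110 (1.51-fold lower). In female-typed cells their log2 ratios were -0.61 and -0.29, and 1 of 6 genes was lower. The CSF2 receptor chains changed by less than 1.5-fold, with Csf2ra at 151 and 200 CPM Csf2rb at 131 and 134, and Csf2rb2, the beta chain specific to interleukin-3, at 33.1 and 32.7. The carried-through reporter loci Cx3cr1 and Ccr2 were at 369 and 526, and at 314 and 415 CPM. The macrophage core list had 0 higher and 1 lower of 15; the lower gene was Mertk, an apoptotic cell receptor, at 61.5 and 34.4 CPM. Of the 13 mitochondrially encoded genes 4 were lower, mt-Nd2 (-0.70), mt-Nd3 (-0.73), mt-Nd6 (-1.19) and mt-Atp8. Genes of other cells moved too: 3 contractile and 3 matrix genes measured here were all lower. Over all 12 contractile and 17 matrix genes listed, measured or not, the sums were 302 and 85.2 and 821 and 386 CPM. Igha was at 2351 and 4845 CPM. Their part in the results was not tested.

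In dendritic cells, the genes of migratory cells that travel to lymph nodes were lower, on the basis of very few cells. Ccl22, a chemokine for regulatory T cells, had 436 UMIs in the 76 wild-type and 8 in the 113 Csf2-/- cells, or 383 and 5.29 CPM. Of the 436 UMIs 319 lay in 1 cell. Ccl17 had 97 and 3 UMIs, a ratio of 0.0233 (0.00472 to 0.0701), and Fscn1, the actin bundler of migrating dendritic cells, 159 and 2, a ratio of 0.00947 (0.00114 to 0.0348). Il4i1, an amino acid oxidase, had 54 and 8. Ccr7, the lymph node homing receptor, had 40 UMIs and 0, at least 17.7-fold lower against a floor of 3 counts in the Csf2-/- library. The highest wild-type cell of each gene held 50 of the 97 Ccl17, 123 of the 159 Fscn1 and 25 of the 40 Ccr7 UMIs. The intervals do not cover such uneven cells. All 8 measured genes of the 14 listed were lower, with a median log2 ratio of -2.61. Genes such as Ccl17 and Fscn1 passed the expression floor through wild type, so this count describes and does not support. Cells with at least 3 of Ccl22, Ccl17, Fscn1 and Ccr7 were 3 of 76 in wild type (3.95%; 0.822 to 11.1) and 0 of 113 in Csf2-/- (up to 3.21%), intervals that overlap. Female-typed cells had 1 higher and 5 lower (median -0.62), and male-typed cells 0 higher and 8 lower (median -3.98). Female-typed wild-type dendritic cells numbered 21 and male-typed Csf2-/- ones 19. With cells counted in every gate they pass, 5 of 8 genes were lower and the median was -0.68. With cells thinned to 3000 UMIs before gating, 2 were higher and 2 lower. That thinning left 750 dendritic genes measured, against 4871. Thinned counts of dendritic lists keep the members measured before thinning and so rest on few UMIs. The choice to name Ccr7 and to count these cells was made after their values were seen.

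Genes of type 1 dendritic cells, which cross-present antigen, were partly higher. Xcr1, their chemokine receptor, was read at 69.4 and 165 CPM (2.38-fold; 1.84 to 3.11). Its UMIs were in 13 of 76 wild-type (17.1%) and 31 of 113 Csf2-/- cells (27.4%), 11.8% and 19.8% thinned, against 0.0921% and 1.21% of endothelial cells. Snx22 was 2.47-fold and the adhesion gene Cadm1 1.90-fold higher. Itgae, the integrin chain CD103 of gut dendritic cells, ran the other way, from 47.5 to 11.3 CPM (4.22-fold lower; 2.41 to 7.76), and was lower in SILT as well (log2 ratio -3.23). Over the list 4 genes were higher and 1 lower of 12, median 0.37 against -0.01 for all genes. In female-typed cells 8 were higher and 0 lower, and in male-typed cells 2 higher and 3 lower. With cells thinned before gating, 1 was higher and 9 lower, with a median of -1.38. Those thinned values rest on few UMIs, as only 750 dendritic genes stayed measured, and cannot be read as a reversal. Itgae was at 12.6 and 11.3 CPM in female-typed cells (21 and 68 cells), a ratio near 1, and at 78.2 and 25.4 in male-typed cells (40 and 19 cells). The female-typed wild-type cells held 318581 UMIs of all genes, so few were of Itgae and its ratio there is imprecise.

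Type 2 dendritic cell genes were mixed, with 1 higher and 2 lower of 11 (median -0.30), where 15% of all dendritic genes were called. With cells thinned before gating, 5 were higher and 2 lower (median 0.49), again on few UMIs. Mgl2, a C-type lectin of these cells, went from 603 to 267 CPM (2.26-fold lower; 2 to 2.56), with 653 and 149 in female-typed but 447 and 440 in male-typed cells. Cx3cr1 went from 16.7 to 37.7 CPM, from 19 and 57 UMIs. Cd7 was 2.80-fold higher (1.79 to 4.55). UMIs of Siglech, a plasmacytoid dendritic cell gene chosen after its values were seen, were in 3 of 76 wild-type (3.95%) and 20 of 113 Csf2-/- cells (17.7%), 0% and 8.11% thinned, against 1.01% and 0% of endothelial cells. Pclaf, a replication factor, and the DNA ligase gene Lig1, both measured in this lineage alone, were 3.5-fold and 2.36-fold higher. The cell cycle list was mixed, with 2 higher and 2 lower of 10. Mki67, a marker of dividing cells, was at 201 and 131 CPM and the topoisomerase gene Top2a at 163 and 106, both lower. Replication and linker histone genes had 2 higher and 3 lower of 6. Pclaf was not higher once cells were counted in every gate they pass (log2 ratio -0.09).

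Among the 72 genes changed in dendritic cells only, 37 were higher and 35 lower. Ptma, a small nuclear protein, was 1.53-fold higher (1.35 times the ratio of the others, 1.28 to 1.42) and the antioxidant Prdx1 1.5-fold (1.32, 1.12 to 1.57). Capg, an actin-capping protein, was 3.44-fold lower (0.303 times the ratio of the others, 0.194 to 0.463). Jun and Fosb, subunits of the AP-1 transcription factor, were 1.53-fold and 1.59-fold lower (0.679, 0.638 to 0.722, and 0.684, 0.636 to 0.736). The Jun difference was lost with cells thinned to 3000 UMIs (log2 ratio 0.04). The immediate early list had 1 higher and 2 lower of 22 in dendritic cells (median -0.02), where 15% of all dendritic genes were called. Female-typed cells had 4 higher and 2 lower, and male-typed cells 0 higher and 5 lower. Thinned cells had 12 higher and 0 lower (median 0.62), on few UMIs. Of the CSF2 receptor and response list 4 of 13 measured genes were lower and 0 higher: Ccl22, Ccl17 and Itgae, named above, and Bcl2a1b, a survival gene of the Bcl2 family, at 97.6 and 28.5 CPM. The list's median was -0.45, but female-typed cells had 3 higher and 4 lower and thinned cells 5 higher and 5 lower, both with a median of -0.03. Both are small sets, with 21 female-typed wild-type cells and 750 dendritic genes measured after thinning. Bcl2a1b had a log2 ratio of 0.66 in female-typed cells, opposite to that over all cells. Csf2ra was at 134 and 176 CPM Csf2rb at 152 and 111 and Csf2rb2 at 26.4 and 20.5. Mitochondrially encoded genes had 5 lower of 13, with mt-Nd2 at -0.72 and mt-Nd3 at -0.71.

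Some venous genes were higher in endothelial cells, on the basis of few cells, and interferon gamma-induced genes were lower. Ackr1, the chemokine-binding receptor of venules, was read at 6.71 and 50.3 CPM (7.50-fold; 5.47 to 10.4), from 14 of 1086 wild-type (1.29%) and 12 of 330 Csf2-/- cells (3.64%). Thinned shares were 0.954% and 3.85%, and monocyte-macrophages held it in 0.412% and 0.926%. Vwf, the clotting carrier von Willebrand factor, went from 35.0 to 86.8 CPM (2.48-fold; 2.08 to 2.95) and Lrg1, a vascular glycoprotein, from 21.7 to 60.3 (2.78-fold). Vwf UMIs were in 12.2% (10.3 to 14.2) of wild-type and 16.4% (12.5 to 20.8) of Csf2-/- cells. Lrg1 UMIs were in 8.75% (7.13 to 10.6) and 12.7% (9.33 to 16.8), and the intervals of each gene overlap. Cells with at least 2 of Ackr1, Vwf and Lrg1 were 2.21% (1.42 to 3.27) and 6.06% (3.74 to 9.21), a count added after the values were seen. Of 4 venous and adhesion genes measured 3 were higher, with a median of 1.39. In female-typed cells all 4 were higher (median 1.51), but in male-typed cells 1 was higher and 3 lower (median -1.11), with Vwf at a log2 ratio of -1.54 and Ackr1 at 8.59 and 0 CPM. Male-typed Csf2-/- endothelial cells numbered 62, so 0 UMIs of a gene found in 3.64% of cells says little.

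The capillary list had 0 higher and 0 lower of 10, and the arterial list 3 higher of 12 (0 in male-typed cells), namely the elastic fibre gene Fbln5 (2.20-fold), the gap junction gene Gja4 (1.64-fold) and the transcription factor gene Sox17 (1.60-fold). The endothelial identity list had 2 higher of 15. Sox18, a transcription factor of vessel development, was at 279 and 546 CPM (1.95-fold; 1.83 to 2.08), with log2 ratios of 0.95 and 0.98 in female-typed and male-typed cells. Cldn5, the tight junction claudin of endothelium, was 4.30-fold higher but had a log2 ratio of -1.58 in male-typed cells. Hmgb2, a chromatin protein, was among the 5 genes changed in this lineage only, at 74.0 and 164 CPM (1.65 times the ratio of the others, 1.45 to 1.89). Maz was 1.68-fold higher (1.37, 1.07 to 1.75) and Zeb2, a repressor of epithelial genes, 1.99-fold lower (0.604, 0.468 to 0.771). Penk, the enkephalin precursor, went from 3.18 to 64.2 CPM, with 106 of its 167 Csf2-/- UMIs in 1 cell.

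Genes induced by interferon gamma were lower in endothelial cells. Gbp7, a guanylate-binding protein of cell-autonomous defence, went from 359 to 237 CPM (1.51-fold lower; 1.39 to 1.65), and Irgm2, an immunity-related GTPase, from 65.6 to 39.95 (1.64-fold lower; 1.33 to 2.04). Gbp6 went from 61.5 to 38.4 CPM and Cd274, the checkpoint ligand PD-L1, from 49.0 to 31.5. Tgtp2, another interferon-induced GTPase, was measured in this lineage alone and went from 60.6 to 20.4 CPM (2.98-fold lower; 2.24 to 4.03), with a log2 ratio of -1.54 in SILT. Of the 14 measured of 17 listed, 7 were lower and 0 higher, with a median of -0.59 against 0.02 for all genes. Female-typed cells had 5 lower (median -0.48) and male-typed cells 10 lower (median -0.72). In mural cells and in monocyte-macrophages 1 of 5 was lower in each, with medians of -0.19 and -0.37. Type I interferon genes in endothelial cells had 1 higher and 2 lower of 11 (median -0.27).

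The promoters of Gbp7 and Irgm2 are shown because they carry the interferon patterns that this list is known for, and were chosen after the matches were seen. They lie at chr3:142530086-142530385 and chr11:58214727-58215026 on the plus strand (RefSeq, GRCm38.p6), 5′ to 3′. Capitals mark matches, on either strand, to the interferon-stimulated response element core and to TTCNNNGAA.
Gbp7: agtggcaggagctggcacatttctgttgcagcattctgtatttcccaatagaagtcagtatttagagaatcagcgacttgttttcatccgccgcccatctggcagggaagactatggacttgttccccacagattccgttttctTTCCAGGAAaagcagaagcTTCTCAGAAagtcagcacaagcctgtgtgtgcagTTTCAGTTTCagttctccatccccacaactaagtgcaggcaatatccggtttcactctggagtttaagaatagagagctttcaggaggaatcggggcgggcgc
Irgm2: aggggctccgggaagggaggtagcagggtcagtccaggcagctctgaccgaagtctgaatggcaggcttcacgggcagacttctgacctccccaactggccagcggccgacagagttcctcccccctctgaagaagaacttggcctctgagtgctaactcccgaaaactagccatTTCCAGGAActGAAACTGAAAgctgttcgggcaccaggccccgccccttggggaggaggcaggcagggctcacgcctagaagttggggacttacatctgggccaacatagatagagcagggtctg
The former occurred in 3.44% and TTCNNNGAA in 8.30% of all windows, against 7 and 5 of the 9 listed genes that were measured in endothelial cells and had a window. Of the 7 lower genes 5 had a window, 4 with the former and 3 with the latter pattern.

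Further endothelial genes measured in no other lineage were lower. The semaphorin gene Sema3c went from 57.7 to 29.2 CPM, Btnl9, a butyrophilin-like gene of capillaries, from 227 to 133, and Hmcn1, a large matrix protein, from 52.8 to 25.4. Immediate early genes had 7 higher of 20 and 0 lower (4 higher in male-typed cells and with TMM scaling), with the mRNA decay factor gene Zfp36 at 269 and 531 CPM (1.98-fold) and Ier2 at 409 and 655 (1.60-fold), both in the same direction in each sex-typed subset. All 4 measured MHC class II genes were higher, but 1 Csf2-/- cell held 242 of 514 H2-Aa UMIs and 228 of 564 H2-Ab1 UMIs. Without the highest cell of each library their log2 ratios were 0.69 and 0.39 in place of 1.56 and 1.11. With cells counted in every gate they pass, and with cells thinned, 0 of the 4 were higher. Red cell markers summed to 2316 and 5397 CPM, with 4104 of 8614 Csf2-/- Hbb-bs UMIs in 1 cell.

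Mural cells differed in immediate early, chemokine and some stromal genes. Immediate early genes had 9 higher of 19 and 0 lower, median 0.47 against 0.03 for all genes. With cells counted in every gate they pass 4 of 19 were higher, and in male-typed cells the list turned, with 1 higher and 6 lower (median -0.11). Nr4a1, a nuclear receptor, went from 104 to 295 CPM (2.82-fold; 2.33 to 3.42), Zfp36 from 234 to 625 (2.67-fold; 2.35 to 3.03) and Ier2 from 192 to 330 (1.72-fold). In the 12 male-typed Csf2-/- cells Zfp36 and Ier2 had log2 ratios of -0.35 and -1.03 against male-typed wild-type cells. Cxcl1 went from 51.7 to 174 CPM (3.37-fold; 2.59 to 4.39) and Ccl11, the chemokine eotaxin, from 312 to 663 (2.13-fold; 1.90 to 2.39). Both were higher in female-typed cells (log2 ratios 1.39 and 1.10) and in male-typed cells (1.45 and 1.34). In SILT their log2 ratios were -0.92 and -0.17. Ccl11 UMIs were in 64.4% and 80.8% of mural cells (51.1% and 71.8% thinned) and in 1.18% and 0.661% of monocyte-macrophages. The interferon-induced genes Isg15 (33.0 and 62.0 CPM) and Ifi27l2a (127 and 231 CPM) were higher as well.

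Pericyte identity genes had 2 higher and 2 lower of 15, where 13.4% of all mural genes were called. Cox4i2, a hypoxia-linked subunit of cytochrome oxidase, went from 552 to 1034 CPM (1.87-fold; 1.71 to 2.05) and Ndufa4l2, a paralog of another respiratory chain subunit, from 600 to 967 (1.61-fold; 1.47 to 1.76). Both kept their direction in each sex-typed subset, by 0.85 and 0.65 in female-typed cells. The endothelin receptor gene Ednrb went from 72.0 to 45.4 CPM. Among the 61 genes changed in mural cells only, 27 were higher and 34 lower. Ccnd1, encoding cyclin D1, was 1.62-fold higher (1.44 times the ratio of the others, 1.23 to 1.69) and Upf1, a factor of nonsense-mediated decay, 1.98-fold (1.87, 1.24 to 2.81). Ndufa4 was 2.56-fold lower (0.355, 0.205 to 0.586), Svil, an actin-bound membrane protein, 2.04-fold lower (0.511, 0.325 to 0.779) and Ly6a 1.92-fold lower (0.545, 0.377 to 0.773). Ndufa4 and Ly6a were at log2 ratios of 0.16 and 0.31 with cells counted in every gate they pass.

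Some smooth muscle and matrix genes were lower among the mural cells. Myh11, the smooth muscle myosin, went from 1176 to 495 CPM (2.38-fold lower; 2.14 to 2.64) and Actg2, an enteric actin, from 87.4 to 27.7. Cnn1, encoding calponin, had 90 and 1 UMIs, a ratio of 0.0224 (0.000561 to 0.128). Actg2 UMIs were in 6.07% of wild-type and 5.30% of Csf2-/- mural cells. Cells with at least 3 of Cnn1, Myh11, Actg2 and Lmod1 were 17 of 247 (6.88%; 4.06 to 10.8) in wild type. In Csf2-/- they were 7 of 151 (4.64%; 1.88 to 9.32), intervals that overlap. Of 12 contractile genes 4 were lower and 0 higher (median -0.23), of 17 matrix genes 3 lower and 0 higher, of 5 smooth muscle markers 4 lower (median -1.25) and of 6 fibroblast markers 2 lower (median -0.27). With cells thinned before gating, the contractile list had 1 higher and 1 lower and a median of 0.16, and the smooth muscle markers 1 higher and 1 lower and a median of -0.15. The matrix genes Fn1 (181 and 32.1 CPM) and Postn (407 and 84.2 CPM) were 5.65-fold and 4.84-fold lower. Adamdec1, a protease of gut fibroblasts, had 200 and 1 UMIs. Pdgfra, a fibroblast receptor, Rbp4, a retinol carrier, and Ncam1, an adhesion molecule, had 99, 189 and 131 UMIs in wild type and 0 in Csf2-/-, at least 16.4-fold, 31.3-fold and 21.7-fold lower against a floor of 3 counts. Those UMIs lay in 4, 11 and 17 of 247 wild-type cells (1.62%, 4.45% and 6.88%), while 1.89%, 1.94% and 1.94% of wild-type monocyte-macrophages held a UMI of the same genes. Cells with at least 2 of Pdgfra, Rbp4, Ncam1 and Adamdec1 were 8 of 247 (3.24%; 1.41 to 6.28) in wild type. In Csf2-/- they were 0 of 151 (up to 2.41%), and these intervals overlap. These genes were chosen after their values were seen. With 1 Csf2-/- UMI among them, the 0 was fixed by that choice and gives no support. Fn1 and Postn had log2 ratios of 1.31 and 0.87 in SILT, the opposite direction. Angpt1, the pericyte ligand of the endothelial receptor Tek, went from 47.3 to 27.7 CPM (1.71-fold lower; 1.08 to 2.78).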

How the data were processed

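Droplet single-cell RNA libraries of colon lamina propria and of solitary isolated lymphoid tissues were made with 3′ chemistry version 2, per the labels' protocols, 1 library per genotype and tissue. The authors deposited UMI counts per gene and barcode. Cell Ranger 2.1.1 and mm10 are named per the submitters' processing notes, while the deposited matrices name version 6.0.0, per the file headers, so the version is uncertain. The matrices list 32285 features and hold no barcode under 500 UMIs. Raw counts were summed per library and lineage over cells passing 1 gate only and scaled to CPM; gate genes were left out. Ratios carry exact conditional binomial intervals and shares Clopper-Pearson intervals (95%). With 1 library per group no test was made. Doublets were called with Scrublet in scanpy 1.11.5 (52 wild-type and 7 Csf2-/- lamina propria cells; 7 is under 0.5% of its library) and left out only as an alternative. Free RNA was not subtracted. Lengths and coordinates come from GENCODE M21, promoters from RefSeq. Calculations used Python 3.11.15, numpy 2.4.6, scipy 1.17.1, pandas 2.3.3, and edgeR 4.0.16 in R 4.3.3 for TMM factors on the counts; the calling code was tested on simulated data.

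The gates and the 46 gene lists were chosen with earlier results of these data known. Named genes are up to 12 per direction among those changed in all lineages, up to 6 per direction and lineage among those changed in, or measured in, 1 lineage only, up to 4 per list, and Csf2, its receptor chains, Cx3cr1 and Ccr2. Among genes changed in all lineages or changed or measured in 1 lineage, those that needed the highest cell of a library, and mitochondrial, immunoglobulin, haemoglobin or unnamed genes, were counted but not named; some are named as list members or, where stated, outside the rule. A gene at 0 in a library passes the expression floor through the other library, so counts over measured members describe and do not support. Alternatives were the fold and expression floors, TMM, leaving out mitochondrial and ribosomal protein genes, equal weights for cells, gates of 2 times the UMIs, thinning to 3000 UMIs, doublets, and a 5% mitochondrial limit. Sex-typed subsets, counting cells in every gate they pass, leaving out cells over 5% immunoglobulin UMIs, the length groups, and counts of cells behind a gene were added after the data were seen. Of the genes changed in all lineages, 1 is counted but not reported here.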

Additional observations from a re-analysis of the deposited data

Results flagged for a closer look

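Of the genes measured in all 4 lineages, 4 changed at least 1.5-fold in opposite directions in 2 lineages, and these differences were not tested. Igkc and Igha, the kappa chain and the IgA heavy chain of antibodies, had log2 ratios of 1.08 and 1.04 in monocyte-macrophages but -5.76 and -5.59 in dendritic cells. A wild-type dendritic cell held 5851 of the 5970 Igha UMIs of its lineage, and without cells over 5% immunoglobulin UMIs the dendritic Igha value was 0.01. Mis12, a kinetochore subunit, was at 0.78 in mural and -0.69 in endothelial cells. Ppp1r10, a nuclear phosphatase regulator, was at 0.65 in mural and -0.63 in dendritic cells.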

How the results depend on the processing

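The numbers of changed genes moved with the thresholds and with the choice of cells. In the order endothelial, mural, dendritic, monocyte-macrophage, changed genes numbered 43, 145, 139 and 126 at 2-fold, 706, 1606, 1525 and 1089 with a floor of 10 CPM, and 162, 348, 329 and 373 with 50 CPM. Thinned cells gave 493 endothelial and 188 dendritic, male-typed cells 774 endothelial and 1387 mural, female-typed cells 1356 dendritic and 388 monocyte-macrophage, and every gate passed 328 mural genes. Genes changed in 1 lineage only numbered, in the same order, 2, 3, 3 and 1 at 2-fold, 31, 180, 204 and 51 with 10 CPM, 2, 16, 19 and 13 with 50 CPM, and 2, 9, 41 and 2 thinned. Endothelial ones were 13 with TMM, 17 without mitochondrial and ribosomal protein genes, 9 with cells weighed equally, 13 at 5% mitochondrial UMIs, 8 and 10 in female-typed and male-typed cells and 2 with every gate. Mural ones were 101 without mitochondrial and ribosomal protein genes, 162 in male-typed cells and 1 with every gate. Dendritic ones were 110 without those genes, 143 with gates of 2 times the UMIs, 238 in female-typed cells and 39 with every gate, and monocyte-macrophage ones 11 and 15 in female-typed and male-typed cells. Genes higher in all 4 lineages numbered 0 at 2-fold, 19 and 2 with 10 and 50 CPM, 5 with equal weights, 4 thinned, and 5 and 1 in female-typed and male-typed cells. Genes lower in all 4 numbered 3 at 2-fold, 9 with 50 CPM, 10 without mitochondrial and ribosomal protein genes, 4 thinned and 33 with every gate. Of the 8 higher and 16 lower genes, TMM kept 5 and 13, female-typed cells 3 and 8, and male-typed cells 0 and 9.

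Share ratios were 0.769 (endothelial), 1.16 (mural) and 1.86 (dendritic) with every gate, 1.17 for mural at 5% mitochondrial UMIs, 2.71 and 0.943 for dendritic and monocyte-macrophage with gates of 2 times the UMIs, and 2.76 and 0.907 thinned. The percent of changed genes that were higher was 40.3 in endothelial cells, 25.1 with TMM, 54.2 without mitochondrial and ribosomal protein genes and 55.2 with equal weights. It was 40.3 in dendritic cells and 55.9 without those genes, and 30.5 in monocyte-macrophages, 50.2 with TMM and 41.3 without those genes.

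Log2 ratios of single genes reversed in male-typed cells for Ckap5 (0.72), Zfp36 (-0.35), Ier2 (-1.03) and Ifi27l2a (-0.56) in mural cells, for Vwf (-1.54), Cldn5 (-1.58) and Hbb-bs (-1.67) in endothelial cells and for Igha (-0.19) in monocyte-macrophages. In female-typed cells Thbs1 (-0.12) reversed in monocyte-macrophages and Bcl2a1b (0.66) in dendritic cells. With every gate Ndufa4 (0.16) and Ly6a (0.31) in mural and Cx3cr1 (-0.10) and Pclaf (-0.085) in dendritic cells reversed. Gates of 2 times the UMIs reversed Ly6a (0.86) and Actg2 (0.10), thinning reversed Macf1 (0.57) and Jun (0.041) in dendritic cells, and leaving out cells over 5% immunoglobulin UMIs reversed dendritic Igha (0.00886). The causes were not tested. No paired analysis was possible because each group is 1 library and the labels carry no replicate numbers.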

Other observations

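S100a9, a neutrophil calprotectin subunit, was read at 46.9 CPM in wild-type and 3.88 in Csf2-/- monocyte-macrophages (12.1-fold lower; 8.42 to 18.0). Its UMIs were in 36 of 1697 and 30 of 756 cells, and 320 of the 1072 wild-type UMIs lay in 1 cell. In SILT its log2 ratio in this lineage was 2.71, in the other direction.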
